A study of Mus musculus with 9 samples.

Results

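The CCAAT/enhancer binding protein (C/EBP) family was followed in primary murine articular chondrocytes through its 6 genes, Cebpa, Cebpb, Cebpd, Cebpe, Cebpg and Cebpz, which were taken by gene symbol from the 55471 genes of the deposited tables. All 6 were listed, and 5 of them passed the filter on low counts that left 15362 genes for testing. Cebpe had no count in any culture and was not tested.

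The series holds RNA-seq of 9 cultures, 3 in each of 3 groups, and asks what overexpression of the osteoclast-associated receptor OSCAR does to chondrocytes and what 5-aminosalicylic acid (5-ASA) then does to these cells. The Ad-Control group, which the labels call Control, received a control adenovirus, the Ad-OSCAR group received an adenovirus that carries Oscar, and the Ad-OSCAR + 5-ASA group received the Oscar virus and then 5-ASA at 10 µM. The cells were isolated from the knee cartilage (femoral condyles, tibial plateaus) of wild-type mice at postnatal day 5. The sources differ on the timing: the labels give 3 days of culture, 400 MOI of virus for 2 h and 36 h more before 5-ASA, whereas the study's methods give 2 days of culture, 800 MOI for 2 h and then 24 h with or without 5-ASA. By the methods, COLpep (a collagen peptide that OSCAR binds) coated all plates, no IL-1β was added, and chondrocytes came from ICR or C57BL/6J mice, while the study's reporting summary gives ICR mice of both sexes for primary chondrocytes. The promoter of the Oscar virus was not given in the sources used here. There was no group with 5-ASA and the control virus, so the response to 5-ASA is known only in cells that overexpress OSCAR. The labels do not say that the 3 cultures of a group came from different animals, so p-values measure the spread between these cultures, which may be technical.

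C/EBP proteins bind DNA as dimers through a basic region followed by a leucine zipper (bZIP). C/EBPβ and C/EBPδ are classically induced by inflammatory cytokines and drive acute-phase genes, C/EBPα with C/EBPβ and C/EBPδ runs the program of fat cell formation, C/EBPε serves the late stages of granulocyte formation, and C/EBPγ, which lacks a classical activation domain, pairs with other bZIP proteins such as ATF4. Cebpz carries the family name but encodes no bZIP protein: it is the homolog of the yeast nucleolar protein NOC1, which serves the assembly of the large ribosomal subunit. In chondrocytes, C/EBPβ has been linked to hypertrophy and to the expression of matrix-degrading enzymes.

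Promoter sequences were at hand for 3 members only, Cebpa, Cebpb and Cebpg. They are shown by the 250 bases before their RefSeq start (GRCm38.p6), so that what these promoters share and do not share can be seen. In the lines, capitals mark matches on either strand to any of 4 motifs, and each line reads 5′ to 3′ on the strand of the gene. The first motif, TATAAA, is the core promoter element that positions transcription. The next, TGACG, is the core of the cyclic AMP response element. Another, CCAAT, is an element of many promoters without tissue preference. The last, TTGCNNAA, where N is any base, stands for the binding site of the C/EBP proteins themselves. The windows are chr7:35119043-35119292 on the plus strand for Cebpa, chr2:167688665-167688914 on the plus strand for Cebpb and chr7:35056567-35056816 on the minus strand for Cebpg.
Cebpa: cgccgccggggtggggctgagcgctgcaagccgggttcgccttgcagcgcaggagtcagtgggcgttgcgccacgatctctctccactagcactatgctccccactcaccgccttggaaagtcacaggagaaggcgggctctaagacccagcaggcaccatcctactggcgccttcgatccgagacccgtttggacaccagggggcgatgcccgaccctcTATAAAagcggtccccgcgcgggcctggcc
Cebpb: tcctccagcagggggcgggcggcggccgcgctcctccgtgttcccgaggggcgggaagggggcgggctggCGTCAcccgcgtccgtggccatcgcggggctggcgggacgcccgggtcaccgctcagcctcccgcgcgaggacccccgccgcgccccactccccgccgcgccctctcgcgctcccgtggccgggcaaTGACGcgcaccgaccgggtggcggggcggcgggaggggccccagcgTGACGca
Cebpg: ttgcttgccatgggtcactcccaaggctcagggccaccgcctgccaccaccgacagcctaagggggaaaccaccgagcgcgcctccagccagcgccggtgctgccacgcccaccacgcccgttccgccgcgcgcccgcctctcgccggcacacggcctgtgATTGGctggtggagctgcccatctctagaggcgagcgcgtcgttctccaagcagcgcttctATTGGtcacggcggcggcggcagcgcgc
The marked letters differ between the 3 windows. Cebpa has TATAAA starting 30 bases before the start, letters found in 12.4% of 32851 promoter windows of the same length. Cebpb has TGACG at 53 and 7 bases before the start and on the other strand at 180 bases, and 17.8% of promoters hold these letters. Cebpg has CCAAT on the other strand at 89 and 28 bases, letters found in 33.8% of promoters. Cebpb also has 5 copies of GGGCGG (GC box, not capitalized, held by 32.7% of promoters), of which the copies at 238 and 234 bases overlap. None of the 3 windows holds TTGCNNAA (9.56% of promoters), the full TGACGTCA (1.55%), TGANTCA (AP-1 site, 6.75%) or TTCNNNGAA (STAT site, 7.02%). The GC content was 66.4% for Cebpa, 81.6% for Cebpb and 70.8% for Cebpg, against a median of 52.4% over all promoters. These matches describe the letters in the windows. Cebpd, Cebpe and Cebpz are named only.

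The genes lie apart in the genome except for a pair on chromosome 7 (GRCm38, GENCODE M21). Cebpg (chr7:35046422-35056573, minus strand) and Cebpa (chr7:35119293-35121928, plus strand) lie 62.7 kb apart and point away from each other. Cebpb (chr2:167688915-167690418, plus strand) has a single exon, Cebpd lies at chr16:15887286-15891031 on the plus strand and Cebpe at chr14:54710360-54712174 on the minus strand. Cebpz (chr17:78919006-78937066, minus strand) has up to 16 exons. Cebpb lies across from Tmem189, Cebpd from Spidr and Cebpz from Cebpzos, each on the opposite strand. The libraries were stranded, but the strand setting of the counting was not given in the sources used here, so reads of these pairs could have been divided between partners. For Ad-OSCAR against Ad-Control, edgeR gave a log2 fold change of 0.16 for Tmem189 (SE 0.047), -0.59 for Spidr (SE 0.049) and 0.25 for Cebpzos (SE 0.101). With 5-ASA against Ad-OSCAR, it gave -0.19 for Tmem189 (SE 0.047), 0.23 for Spidr (SE 0.049) and -0.033 for Cebpzos (SE 0.096). The small transcripts that overlap Cebpa or Cebpg (Gm45091, Gm44836, Gm45094 and Gm45095) had between 0 and 16 counts per culture.

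The 9 cultures held between 19733448 and 28192740 estimated counts. Oscar itself had 3 or 4 counts in the Ad-Control cultures, and averaged 6665 ± 397 CPM (counts scaled to a common library total by the TMM method) in Ad-OSCAR and 3399 ± 404 CPM with 5-ASA (SD, n = 3). The group with 5-ASA therefore carried less Oscar RNA than the Ad-OSCAR group, and the part of this difference in the 5-ASA results was not tested. All 9 chondrocyte markers averaged at least 1 TPM (a level scaled by transcript length and library total) in Ad-Control, and 8 did so in either Ad-OSCAR group, but their summed level was 15015 to 17080 TPM in Ad-Control against 886 to 1021 TPM in Ad-OSCAR and 983 to 1168 TPM with 5-ASA. In bulk RNA, fewer cells of a type and less RNA per cell cannot be told apart. Of 8 markers of macrophages and other leukocytes only Cd68 averaged over 1 TPM in each group. The summed level of this list was 3.6 to 5.83 TPM in Ad-Control, 14.13 to 14.42 TPM in Ad-OSCAR and 9.99 to 11.39 TPM with 5-ASA. The pan-leukocyte marker Ptprc averaged 0.013, 0.017 and 0.023 TPM in these groups, and Tyrobp was listed at 0 in every Ad-Control and Ad-OSCAR culture. The leukocyte list thus moved in the same direction as Cebpa and Cebpb, through Cd68, and its part in their change was not tested.

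The levels of the members, compared per transcript length, set Cebpb and Cebpd far above the rest (the plot of members by culture shows the same genes in CPM, which is not scaled by length). In Ad-Control cells Cebpb averaged 129 ± 10.5 TPM and Cebpd 111 ± 13.8 TPM, and the cultures of the pair overlapped. Cebpg followed at 28.7 ± 2.48 TPM, Cebpz at 22.6 ± 1.46 TPM and Cebpa at 3.62 ± 0.136 TPM (SD, n = 3 throughout). Neither Cebpg and Cebpz nor Cebpz and Cebpa overlapped in Ad-Control, the lowest Cebpg culture being at 25.92 TPM and the highest Cebpz culture at 23.84 TPM. The order was the same in all 3 groups, but in Ad-OSCAR cells the lowest Cebpb culture (158 TPM) lay above the highest Cebpd culture (140.5 TPM), as also with 5-ASA (164 TPM against 123 TPM). Cebpe, the granulocyte member, had 0 counts in 9 of 9 cultures, which allows a level of up to 0.163 to 0.248 TPM (3 counts, counting error only).

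**Figure D1:**
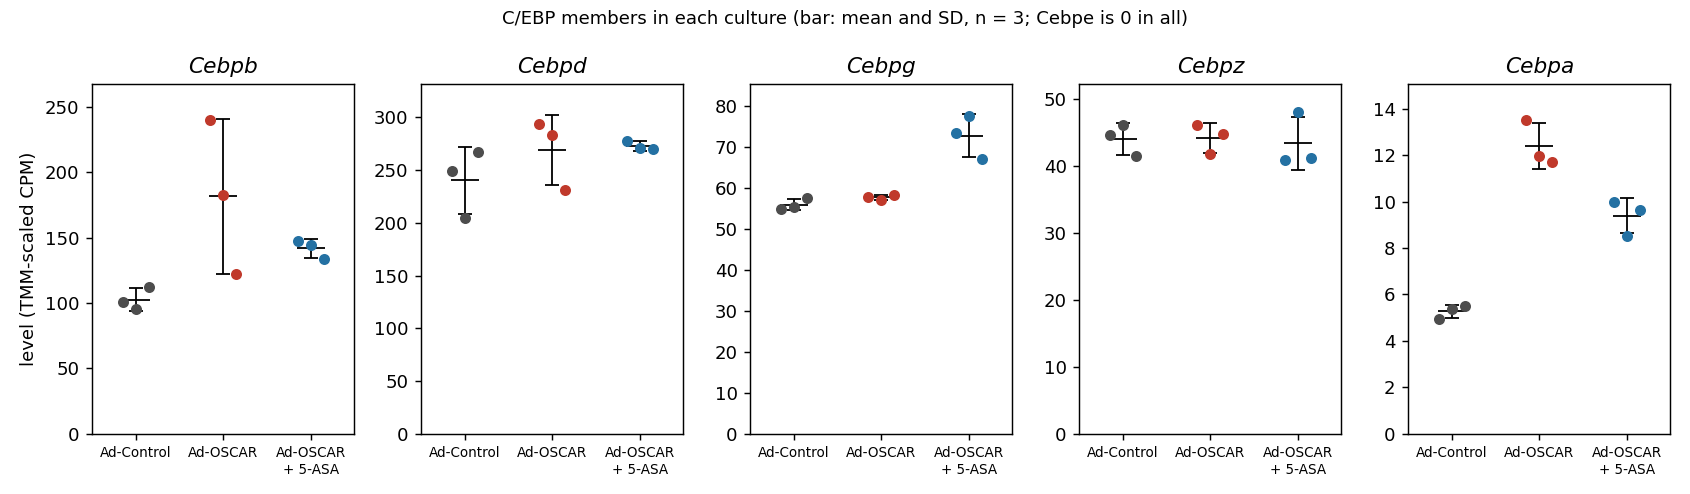
Level of 5 C/EBP genes in each of the 9 cultures, on the y axis in TMM-scaled CPM starting at 0, by group on the x axis; points are cultures, and bars give the mean and SD (n = 3). The 3 Ad-Control cultures lie below all others for Cebpa and Cebpb, the 5-ASA cultures lie above all others for Cebpg, and the Ad-OSCAR cultures of Cebpb are spread from 122 to 240.2 CPM.

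Cebpb took a larger share of the bZIP members in Ad-OSCAR cells. Cebpb held 47.3 ± 0.795% of the summed TPM of the 5 bZIP members in Ad-Control, 57.4 ± 6.11% in Ad-OSCAR and 51.5 ± 0.138% with 5-ASA. Cebpd held 40.8 ± 2.03%, 32.7 ± 3.54% and 36.9 ± 1.16% in the same order. In both genes the Ad-Control cultures did not overlap with the Ad-OSCAR cultures, while the cultures with 5-ASA fell between 51.5% and 51.7% for Cebpb, next to the lowest Ad-OSCAR culture at 51.3%. Cebpa, the adipogenic member, held between 1.24% and 1.48% in Ad-Control, between 1.94% and 2.98% in Ad-OSCAR, and between 1.73% and 2.06% with 5-ASA. The share of Cebpg was 10.6 ± 1.12%, 7.61 ± 2.10% and 9.59 ± 1.25%, and its groups overlapped. The summed TPM itself was 249.6, 270.1 and 298 in the Ad-Control cultures, 309, 398 and 486 in Ad-OSCAR, and 319, 334 and 337 with 5-ASA, so that both Ad-OSCAR groups lay above Ad-Control. The shares are a description, with no test.

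**Figure D2:**
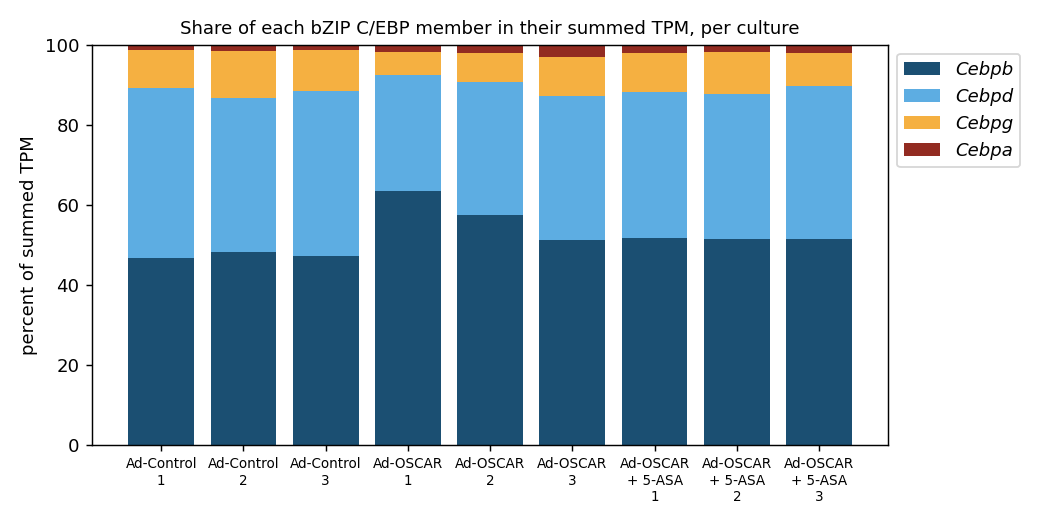
Share of Cebpb, Cebpd, Cebpg and Cebpa in the summed TPM of the bZIP members (y axis, percent, from 0 to 100), 1 bar per culture by group and replicate on the x axis; Cebpe is 0. The Cebpb part is largest in Ad-OSCAR replicate 1 (63.5%) and between 46.6% and 48.2% in the Ad-Control cultures.

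OSCAR overexpression was asked about first. Cebpa and Cebpb rose, by 2.35-fold and 1.77-fold, while Cebpd, Cebpg and Cebpz did not pass the test. By edgeR's quasi-likelihood test, 2 of the 5 tested members had an adjusted p below 0.05 (Benjamini-Hochberg over all genes), both higher, where 65.0% of the 15362 genes passed and 32.7% passed as higher. The same 2 members were the ones whose cultures did not overlap between the groups, and 69.0% of all genes did not overlap. None passed the study's limit of an absolute log2 fold change over 1.5, which 9.96% of genes passed.

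Cebpa encodes C/EBPα, known for differentiation of fat cells, liver and myeloid cells and for arrest of the cell cycle. Its level was 4.96, 5.38 and 5.50 CPM in the Ad-Control cultures and 13.5, 12.0 and 11.7 CPM in the Ad-OSCAR cultures. Every Ad-OSCAR culture was thus more than 2 times as high as every Ad-Control culture. The log2 fold change was 1.23 (SE 0.101, 95% interval 1.02 to 1.45, adjusted p = 4.25e-09, edgeR). The low level rests on 104 to 131 counts per culture in Ad-Control and 292 to 399 in Ad-OSCAR.

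Cebpb encodes C/EBPβ, the member that inflammatory signals and kinases act on. Its level was 100.5, 95.3 and 112 CPM in Ad-Control and 240.2, 183 and 122 CPM in Ad-OSCAR. The groups did not overlap, but Ad-OSCAR replicate 3 lay just above the highest Ad-Control culture, and replicate 1 was 1.97 times as high as replicate 3. The SD of log2 CPM within Ad-OSCAR was 0.49 for Cebpb, above that of 99.2% of the genes in the same group. In Ad-Control and with 5-ASA, the corresponding ratio of the highest to the lowest culture was 1.18 and 1.10. The log2 fold change was 0.83 (SE 0.149, 95% interval 0.51 to 1.14, adjusted p = 9.02e-05, edgeR). Without Ad-OSCAR replicate 1 it was 0.57 and without replicate 3 it was 1.05, and it passed the test either way (adjusted p = 0.000355 and 2.59e-08).

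Cebpd encodes C/EBPδ, an acute-phase partner of C/EBPβ. It had 249.1, 205 and 267 CPM in Ad-Control and 293, 283 and 231 CPM in Ad-OSCAR. The groups overlapped, with Ad-OSCAR replicate 3 again the lowest of its group. The log2 fold change was 0.17 (SE 0.084, 95% interval -0.012 to 0.34, adjusted p = 0.0939, edgeR). It passed the test when Ad-Control replicate 3 (0.24, adjusted p = 0.0229) or Ad-OSCAR replicate 3 (0.27, adjusted p = 0.00652) was left out, and with no filter on low counts (0.17, adjusted p = 0.00253). The ratio of Cebpb to Cebpd TPM within a culture was 1.10 to 1.25 in Ad-Control and 1.43 to 2.20 in Ad-OSCAR.

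Cebpg, the partner of ATF4, and Cebpz, the nucleolar NOC1 homolog, differed little. Cebpg had 54.9, 55.4 and 57.5 CPM in Ad-Control and 57.8, 57.0 and 58.3 CPM in Ad-OSCAR. The groups overlapped, and the log2 fold change was 0.046 with a 95% interval of -0.067 to 0.16 (adjusted p = 0.464, edgeR). Cebpz had 44.6, 46.1 and 41.4 CPM against 46.1, 41.7 and 44.7 CPM. These groups also overlapped, with a log2 fold change of 0.0039 and a 95% interval of -0.13 to 0.14 (adjusted p = 0.961, edgeR).

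5-ASA was then compared with the untreated Ad-OSCAR cultures. Cebpa fell to 0.755 times its Ad-OSCAR level and Cebpg rose by 1.26-fold, while Cebpb, Cebpd and Cebpz did not pass the test. By edgeR, 2 of 5 tested members were called, 1 lower and 1 higher, where 17.8% of all genes were called, 10.4% higher and 7.38% lower. The same 2 members had groups that did not overlap, as 33.8% of all genes did. None passed the study's limit of a 1.5-fold change with an unadjusted p below 0.05, which 4.15% of genes passed. The study's methods set that limit for the cultures with 5-ASA against Ad-Control, where Cebpa passed it. The direction over all genes depended on the scale: 1598 genes were higher and 1134 lower on TMM-scaled counts, whereas limma on log2(TPM + 1) gave 562 higher and 1487 lower, with a median log2 fold change of -0.08 over all genes against -0.0044 in edgeR.

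**Figure D3:**
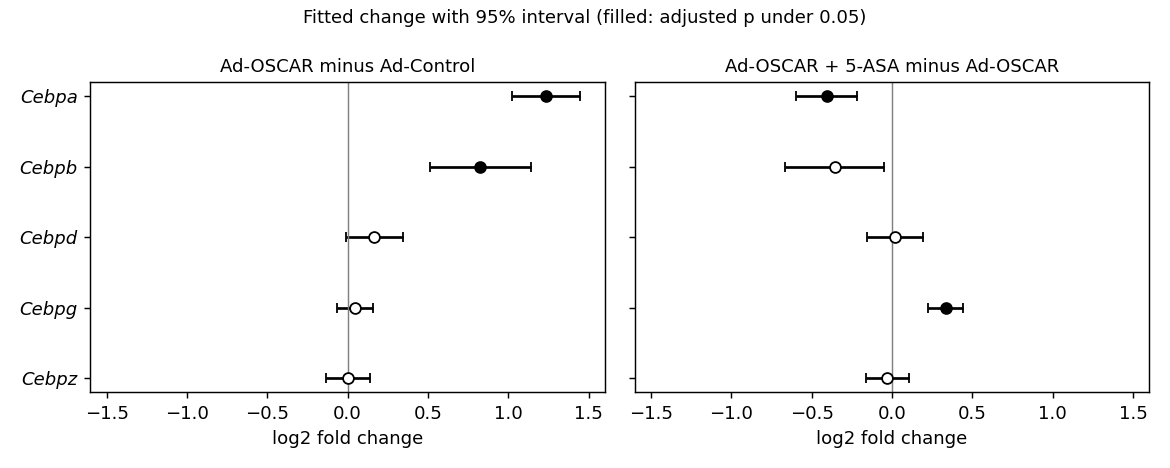
Log2 fold change of the 5 tested members (x axis) with its 95% interval from edgeR, genes on the y axis, for Ad-OSCAR minus Ad-Control on the left and Ad-OSCAR + 5-ASA minus Ad-OSCAR on the right; filled points have an adjusted p below 0.05. Cebpa and Cebpb are filled on the left at 1.23 and 0.83, and Cebpa and Cebpg are filled on the right at -0.40 and 0.33.

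Cebpa had 10.0, 8.54 and 9.64 CPM with 5-ASA, against 11.7 to 13.5 CPM in Ad-OSCAR. All 3 cultures with 5-ASA lay below the Ad-OSCAR cultures and above the Ad-Control cultures. The log2 fold change was -0.40 (SE 0.090, 95% interval -0.59 to -0.22, adjusted p = 0.00386, edgeR), and it passed the test in all 19 alternatives, between -0.48 and -0.34. This comparison and that with Ad-Control share the Ad-OSCAR cultures, so opposite directions in them are not independent.

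Cebpg had 73.4, 77.6 and 67.2 CPM with 5-ASA, all above the 57.0 to 58.3 CPM of the Ad-OSCAR cultures. The log2 fold change was 0.33 (SE 0.052, 95% interval 0.23 to 0.44, adjusted p = 0.000163, edgeR). On the TPM scale the groups overlapped, at 33.5, 35.5 and 26.2 TPM with 5-ASA against 27.7, 29.0 and 30.4 TPM in Ad-OSCAR, and limma on log2(TPM + 1) gave 0.11 (adjusted p = 0.511). TPM divides by the effective length that RSEM estimates from the transcripts in use, and for Cebpg this was 3400, 3410 and 4089 bases in the cultures with 5-ASA and 3230 to 3550 bases in Ad-OSCAR. The annotation holds coding transcripts of 914 and 4709 bases for Cebpg. Replicate 3 with 5-ASA, which was the lowest of its group in TPM, had the longest effective length of the 9 cultures. The median over all genes was also lower on log2(TPM + 1), at -0.08. The part of either in the TPM values of Cebpg was not tested.

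**Figure D4:**
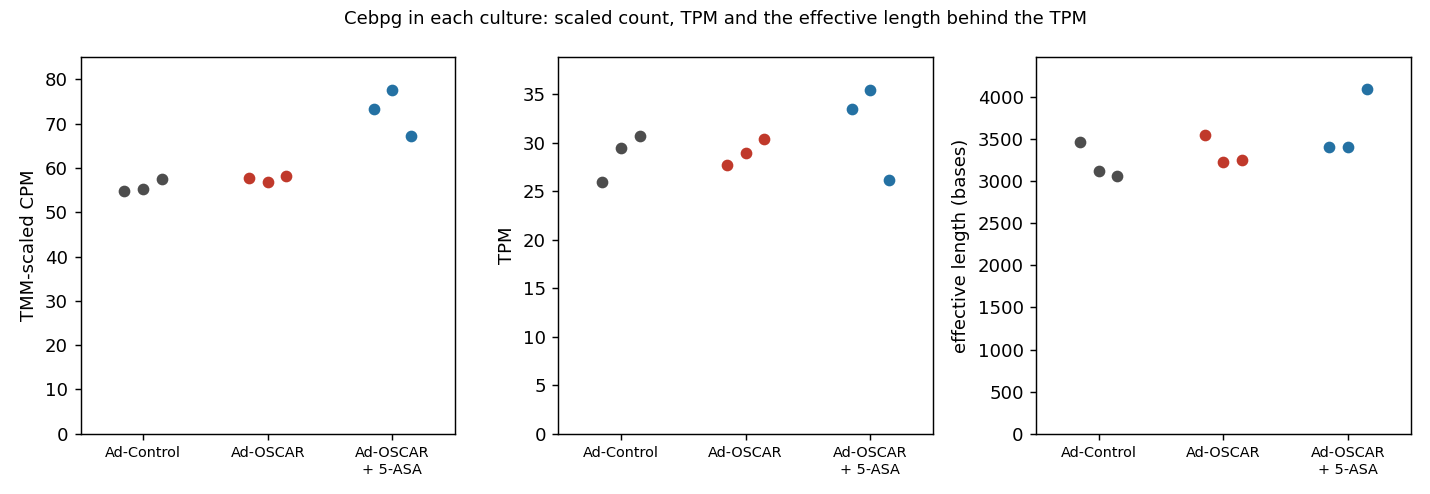
Cebpg in each culture by group (x axis) as TMM-scaled CPM, TPM and RSEM effective length in bases (y axes, each from 0); points are cultures. The cultures with 5-ASA stand above the others in CPM, but replicate 3 with 5-ASA drops to 26.2 TPM where its effective length is 4089 bases.

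Cebpb had 147, 144 and 134 CPM with 5-ASA, within the range of 122 to 240.2 CPM of the Ad-OSCAR cultures. The groups overlapped because Ad-OSCAR replicate 3 lay below every culture with 5-ASA. The log2 fold change was -0.36 (SE 0.146, 95% interval -0.66 to -0.050, unadjusted p = 0.0250, adjusted p = 0.104, edgeR). Single cultures decided this value: it was -0.58 (adjusted p = 0.000324) without Ad-OSCAR replicate 3 and -0.10 (adjusted p = 0.629) without Ad-OSCAR replicate 1. With no filter on low counts it was -0.36 with an adjusted p of 4.58e-10, where the SE was 0.052 against 0.146 in the main fit. Over the 19 alternatives the adjusted p passed 0.05 only in that fit and without Ad-OSCAR replicate 3. Tmem189 on the opposite strand fell by 0.19 on the log2 scale (SE 0.047), and its part in the reads of Cebpb was not tested.

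Cebpd had 278, 271 and 269.6 CPM with 5-ASA and overlapped with Ad-OSCAR, at a log2 fold change of 0.019 (95% interval -0.16 to 0.19, adjusted p = 0.914, edgeR). Its 3 cultures with 5-ASA were close together, the highest being 1.03 times the lowest, against 1.27 in Ad-OSCAR. Cebpz had 40.9, 48.0 and 41.2 CPM and also overlapped, at -0.029 (95% interval -0.16 to 0.11, adjusted p = 0.818, edgeR).

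Set against Ad-Control, which shares its cultures with the comparisons above, the cultures with 5-ASA had higher Cebpa, Cebpb and Cebpg. These are 3 of the 5 tested members, all higher, where edgeR called 63.2% of all genes and 31.4% as higher. The log2 fold changes were 0.83 for Cebpa (SE 0.105, adjusted p = 1.61e-06), 0.47 for Cebpb (SE 0.149, adjusted p = 0.0109) and 0.38 for Cebpg (SE 0.053, adjusted p = 5.28e-06). Cebpa also passed the 1.5-fold limit, which the study's methods set for this comparison, as 29.9% of genes did. Cebpb lost its call in DESeq2 with all cultures (0.46, adjusted p = 0.0738) and in limma on log2(TPM + 1) (0.40, adjusted p = 0.0851). On log2(TPM + 1) Cebpg also lost its call, at 0.13 (adjusted p = 0.311). Cebpd did not overlap between these groups, as 66.6% of all genes did not, but its log2 fold change of 0.18 (SE 0.084) missed the test (adjusted p = 0.0652). Cebpd passed without Ad-Control replicate 3 (0.26, adjusted p = 0.0159) and without Ad-OSCAR replicate 3 (0.18, adjusted p = 0.0290), and it was lowest without Ad-Control replicate 2 (0.078, adjusted p = 0.394). Cebpz had -0.025 (adjusted p = 0.763).

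The proteins that dimerize with C/EBP or set its level were read from lists. Of 8 bZIP partners, 3 rose and 5 fell in Ad-OSCAR by edgeR, with a median log2 fold change of -0.25 against 0.022 over all genes, of which 32.7% rose and 32.2% fell. Atf3, a stress-induced repressor, rose by 1.71 (5.88 ± 1.21 to 17.9 ± 1.31 TPM, SD, n = 3), and Batf rose from 8.38 ± 0.995 to 19.3 ± 1.25 TPM, while Fos fell by 0.61 on the log2 scale. With 5-ASA against Ad-OSCAR, 2 of the 8 rose and 1 fell (median -0.0068), where 10.4% of all genes rose and 7.38% fell (median -0.0044). Atf3 fell by 0.85 on the log2 scale (SE 0.089), whereas Atf4 and Atf5, activators of the amino acid response, rose by 0.47 (SE 0.053) and 0.49 (SE 0.067). Ddit3, which encodes CHOP, an inhibitor of C/EBP binding, had -0.24 in Ad-OSCAR (called) and -0.10 with 5-ASA (adjusted p = 0.219).

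Of 16 regulators of C/EBP level or activity, 7 rose and 2 fell in Ad-OSCAR (median 0.098), where 32.7% of all genes rose and 32.2% fell. With 5-ASA 3 of the 16 rose and 2 fell (median 0.020), where 10.4% of all genes rose and 7.38% fell. The Tribbles proteins are pseudokinases, of which TRIB1 and TRIB2 direct C/EBPα to degradation in myeloid cells. In Ad-OSCAR Trib2 rose by 1.16 (9.5 ± 0.342 to 22.1 ± 1.01 TPM) and Trib3 fell by 1.27 on the log2 scale. With 5-ASA Trib3 rose by 0.82, Trib2 rose by a further 0.41, and Fbxw7, part of a ubiquitin ligase, fell by 0.26 on the log2 scale. Il6, a cytokine that induces Cebpb and Cebpd in many cells, rose by 4.32 in Ad-OSCAR (80.7 ± 11.9 to 1736 ± 126 TPM). Stat3, which carries the IL-6 signal, had 0.065 (adjusted p = 0.196, edgeR), and Socs3, a target of that signal, had -0.12 (adjusted p = 0.0531, edgeR). Il6st and Il6ra of the same list had -0.17 (called) and -0.065 (not called). The activity of this signal was not measured.

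Genes that C/EBP proteins are known to act on in other cells were read in the same way, without any claim that they are targets here. Of 18 tested acute-phase and inflammatory genes (20 listed), 16 rose and 2 fell in Ad-OSCAR, with a median log2 fold change of 1.92, where 32.7% of all genes rose and 32.2% fell. Ptgs2, which encodes COX-2, rose by 5.20 (20.7 ± 2.75 to 779 ± 68.4 TPM), and Nos2, the inducible nitric oxide synthase, by 4.16. Il1rn, the IL-1 receptor antagonist, and Orm1, an acute-phase plasma protein, were the 2 that fell. With 5-ASA 7 of the 18 rose and 4 fell (median 0.12), where 10.4% of all genes rose and 7.38% fell. Hp rose by 0.50 and Lcn2 by 0.44, while Il1rn fell by 0.63 on the log2 scale. Ptgs2, Ptges and Il6 also fell with 5-ASA, by 0.29, 0.24 and 0.21 on the log2 scale, the other 3 of these 4. Ptges and the other genes given outside the largest changes of each list were picked with their values in view.

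Of 11 tested adipogenic genes (16 listed), 2 rose and 8 fell in Ad-OSCAR (median -0.81), where 32.7% of all genes rose and 32.2% fell. The 2 that rose were Fabp4 and Cd36, the latter near the floor in Ad-Control (0.133 against 1.28 CPM), so that it passed the filter on low counts through the groups where it was high. With 5-ASA 3 rose and none fell (median 0.14), where 10.4% of all genes rose. G0s2, an inhibitor of fat breakdown, fell by 2.57 on the log2 scale in Ad-OSCAR and rose with 5-ASA, at 18.5 ± 1.34, 3.16 ± 0.346 and 7.32 ± 0.165 TPM in Ad-Control, Ad-OSCAR and with 5-ASA. Scd1, a fatty acid desaturase, fell by 1.65 on the log2 scale and rose by 0.29 on counts with 5-ASA, but had -0.025 on log2(TPM + 1). Pparg, the partner of C/EBPα in fat cells, had -0.89 in Ad-OSCAR (SE 0.149, called) and 0.37 with 5-ASA (SE 0.152, adjusted p = 0.106, edgeR). Fabp4 rose by 1.25 in Ad-OSCAR (26.7 ± 4.13 to 64.3 ± 3.49 TPM), while the other 4 adipocyte markers, Adipoq, Plin1, Cidec and Lep, averaged at most 0.2 TPM in any group. The summed adipocyte list was 23.4 to 31.5 TPM in Ad-Control, 60.5 to 67.5 TPM in Ad-OSCAR and 54.2 to 63.7 TPM with 5-ASA, nearly all of it Fabp4.

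The granule genes that C/EBPε serves in granulocytes were mostly at the floor, as was Cebpe. Of 12 listed, 8 did not pass the filter on low counts, and those that passed were Camp, Lcn2, Prtn3 and S100a8. S100a8 had 4 to 11 counts per culture in Ad-Control, so that it passed the filter through the groups where it was high. It rose by 4.63 in Ad-OSCAR (1.97 ± 0.991 to 48.3 ± 1.17 TPM) and fell by 0.70 on the log2 scale with 5-ASA, a call lost in limma on log2(TPM + 0.1). Camp rose by 1.85 in Ad-OSCAR, and its rise of 0.28 with 5-ASA was lost in 13 of 19 alternatives. The summed neutrophil list was 10.0 to 12.2 TPM in Ad-Control, 78.0 to 84.8 TPM in Ad-OSCAR and 62.1 to 68.7 TPM with 5-ASA, but only S100a8 and Camp of its 7 genes averaged over 1 TPM and S100a9, the partner of S100a8, was listed at 0 in all 9 cultures.

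Of 12 tested hypertrophy genes (13 listed), 7 rose and 5 fell in Ad-OSCAR (median 0.34), where 32.7% of all genes rose and 32.2% fell. Cdkn1c, a cell cycle inhibitor, fell by 2.79 and Ibsp, a bone matrix protein, fell by 2.74 on the log2 scale. Pthlh, which restrains hypertrophy, rose from 0.11 ± 0.098 to 2.16 ± 0.323 TPM, on 0 to 3 counts per culture in Ad-Control. Pthlh and Sp7 (2.14 CPM in Ad-Control and 0.283 CPM in Ad-OSCAR), a transcription factor of osteoblasts, passed the filter only through the groups where they were high. With 5-ASA 4 rose and none fell (median 0.11), where 10.4% of all genes rose and 7.38% fell. Among the 4, Ibsp rose by 1.27, Alpl (alkaline phosphatase) by 0.91 and Vegfa by 0.29. Of 4 osteoblast markers, which include Ibsp, the summed level was 30.1 to 35.8 TPM in Ad-Control, 5.72 to 7.60 TPM in Ad-OSCAR and 11.01 to 12.49 TPM with 5-ASA, most of it Ibsp (29.9, 4.57 and 10.3 TPM on average). Bglap (osteocalcin) had its highest mean in Ad-OSCAR, at 1.06, 1.72 and 1.22 TPM in the same order.

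The amino acid response genes that ATF4 and C/EBPγ are known to act on mostly fell in Ad-OSCAR and mostly rose with 5-ASA. Of 10 tested, 3 rose and 7 fell in Ad-OSCAR (median -0.92), where 32.7% of all genes rose and 32.2% fell, and 9 rose and none fell with 5-ASA (median 0.91), where 10.4% of all genes rose. Psat1, of serine synthesis, had 152 ± 5.90 TPM in Ad-Control, 41.9 ± 4.07 TPM in Ad-OSCAR and 102 ± 12.7 TPM with 5-ASA. Its log2 fold change was -1.99 (SE 0.094) and then 1.46 (SE 0.094). Phgdh, which opens the same pathway, had -1.57 and then 1.12, Shmt2 had -1.38 and then 0.84, and Mthfd2, of mitochondrial folate metabolism, had -0.86 and then 1.06. Cebpg itself had 0.046 in the first comparison (not called) and 0.33 in the second (called on counts), and Atf4 had -0.26 and then 0.47. Their part in the changes of the list was not tested.

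Of 19 nucleolar genes of large-subunit assembly, 4 rose and 11 fell in Ad-OSCAR (median -0.17), where 32.7% of all genes rose and 32.2% fell, while Cebpz had 0.0039. Npm1 fell by 1.03, Ncl by 0.73 and Nop56 by 0.60 on the log2 scale, and these 3 abundant nucleolar proteins had the largest changes of the list. With 5-ASA 2 of the 19 rose and 1 fell (median -0.027), a share near that of all genes, of which 10.4% rose and 7.38% fell. These were Ncl at 0.19, Fbl at 0.16 and Mak16 at -0.19, calls lost in 6, 14 and 8 of 19 alternatives. The plot of the linked lists shows all tested genes.

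**Figure D5:**
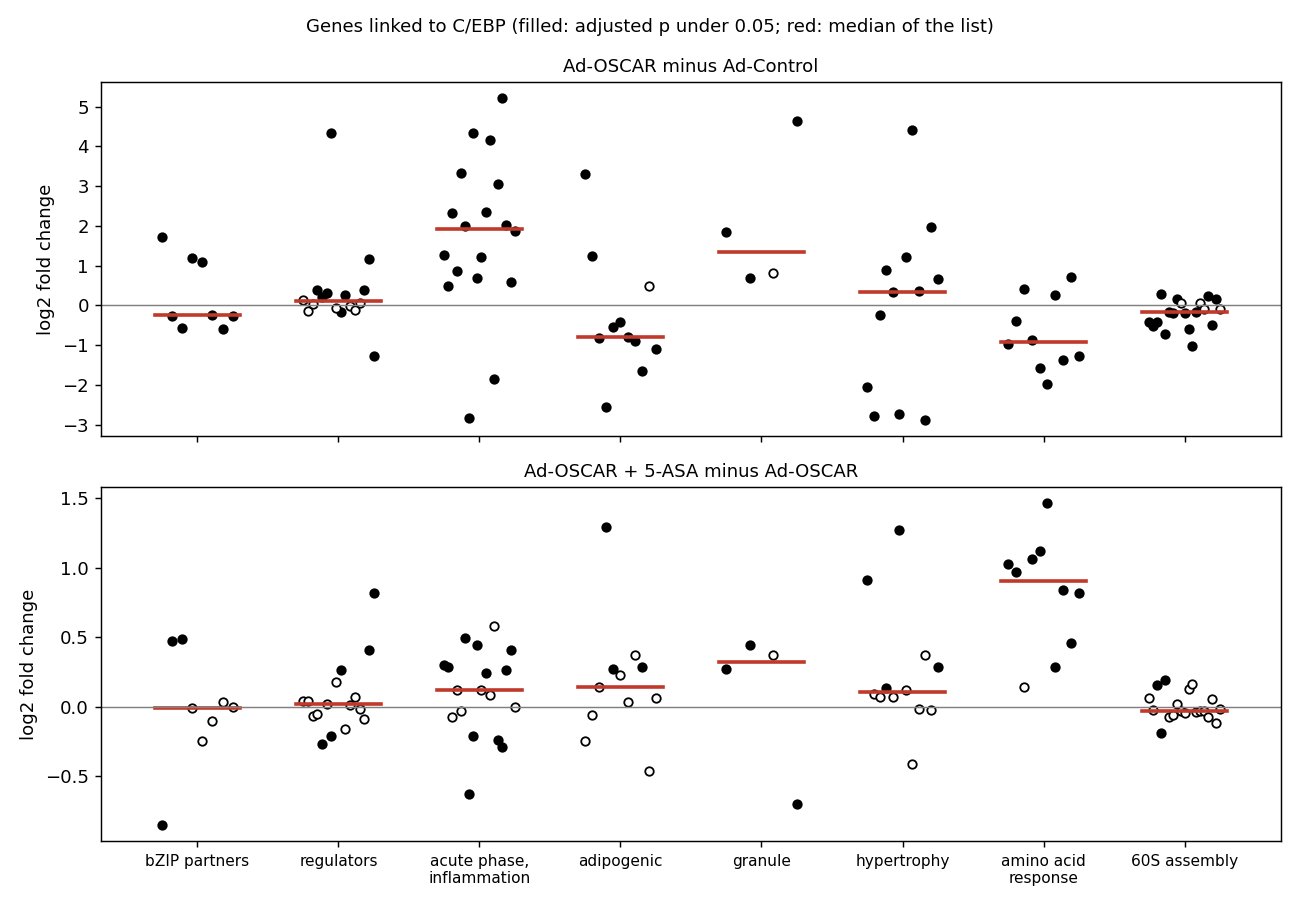
Log2 fold change from edgeR (y axes) of the tested genes of 8 lists linked to C/EBP (x axis), for Ad-OSCAR minus Ad-Control above and Ad-OSCAR + 5-ASA minus Ad-OSCAR underneath; each point is a gene, filled points have an adjusted p below 0.05, and red lines are list medians. The acute-phase list has its median at 1.92 in the upper panel, and the amino acid list has its median at 0.91 in the lower panel.

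For each member, the genes with the most similar pattern over the 9 cultures were found by the root mean square difference in centred log2 CPM among 13266 genes with a mean of at least 1 CPM. For Cebpa these were Stap2 (0.076), Fbxw9 (0.077) and Parp10 (0.080), which rose by 1.15, 1.25 and 1.15 in Ad-OSCAR. With 5-ASA these 3 had -0.37, -0.42 and -0.31, and Stap2 did not pass the test there (adjusted p = 0.0564, edgeR). For Cebpb the nearest genes were much less near: BC002163 (0.163), Junb (0.181), which encodes an AP-1 subunit, and Eva1b (0.183). Junb had 93.0 to 107 CPM in Ad-Control, and 167, 161 and 136 CPM in Ad-OSCAR, with replicate 3 again the lowest of the group. For Cebpg they were 1700001L05Rik (0.032), Tnfrsf11b (0.043) and Dhrs7 (0.047), of which Tnfrsf11b, the decoy receptor osteoprotegerin, had 472 to 494 CPM in Ad-Control, 472 to 500.1 CPM in Ad-OSCAR and 588 to 623 CPM with 5-ASA. For Cebpd they were Ccdc85b (0.055), Romo1 (0.063) and Mex3d (0.064), and for Cebpz Zfp330 (0.042), Rbbp6 (0.043) and Tmem135 (0.043). These distances describe likeness over 9 cultures of 3 groups.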

How the data were processed

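RNA was extracted from 9 chondrocyte cultures, and stranded mRNA libraries were made and sequenced by the authors. Reads were trimmed with BBDuk, aligned to GRCm38 with STAR 2.7.1a and quantified with RSEM 1.3.1, as the study's methods and the submitters' processing notes state. The study's reporting summary names another version of RSEM and another annotation for TPM, and which of them made the deposited TPM and effective lengths was not settled here. The deposited files hold estimated counts per gene (expected counts of RSEM, not scaled to a common total), and the authors deposited TPM and FPKM beside them. Gene symbols and positions came from GENCODE M21, in which 55144 of 55471 identifiers were found. Counts that were not whole, by a tolerance of 0.001, made up 8.97% to 10.1% of genes.

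Estimated counts were rounded and analysed in edgeR 4.0.16 (R 4.3.3). Low genes were removed with filterByExpr, libraries were scaled with TMM, and a quasi-likelihood model with 1 term for group was fitted to the 9 cultures together. P-values were adjusted after Benjamini and Hochberg over 15362 genes, with calls at an adjusted p below 0.05. The SE was taken from the fold change and its F value. The study applied its own limits with DESeq2. For OSCAR they were an absolute log2 fold change over 1.5 with an adjusted p below 0.05. For 5-ASA they were a 1.5-fold change with an unadjusted p below 0.05, by its methods against Ad-Control. Here the limit for 5-ASA was also applied against Ad-OSCAR. Log2 CPM used a prior count of 2, and levels between genes were compared in TPM. FPKM was used only for the shares, where it returns those of TPM because the scales are proportional within a culture. Named genes were all members, up to 3 called genes of each linked list with the largest change and a mean of at least 1 CPM, and the 3 genes nearest to each member. The members, lists and tests were chosen with earlier results of these data known. Alternatives were DESeq2 1.42.0 (also restricted to the pair of groups tested, as edgeR was), RLE or upper-quartile scaling, other filters on low counts (none, or 10 counts required throughout), a replicate block, limma 3.58.1 on log2(TPM + 1) or log2(TPM + 0.1), and each culture left out in turn. The scripts were tested on simulated counts. Figures were made with matplotlib 3.10.9. Depth limits the precision mainly for Cebpa, and no pair of cultures of a group agreed within sampling noise, with a chi-square per degree of freedom of 4.03 to 7.52.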

Additional observations from a re-analysis of the deposited data

How the results depend on the processing

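Cebpa passed the test with the same direction in all 19 alternatives of each comparison, as did Cebpb for Ad-OSCAR against Ad-Control, while Cebpg passed with 5-ASA against Ad-OSCAR in 17. The shares of the members moved by less than 1 SD in the alternatives run, but this could not have come out otherwise. FPKM returns the shares of TPM within a culture, and leaving out 1 culture cannot move a group mean by 1 SD. The stability of the shares was thus not tested. With single cultures left out, the mean share of Cebpb in Ad-OSCAR ranged from 54.3% to 60.5%. Linked genes called higher with 5-ASA against Ad-OSCAR numbered 30, and 20 in both limma fits on TPM, with 20 to 32 over all alternatives, and those called lower numbered 8, with 6 to 11. For Ad-OSCAR against Ad-Control, Cebpd passed without a filter on low counts (0.17) and ranged from 0.059 to 0.27 with single cultures left out, and Cebpz, near 0, turned to -0.0064 in DESeq2 with all cultures, -0.0044 in DESeq2 with the groups compared and -0.0066 with RLE, and ranged from -0.040 to 0.045 with cultures left out. For 5-ASA against Ad-OSCAR, members called higher numbered 0 in limma on log2(TPM + 1) and on log2(TPM + 0.1), with Cebpg at 0.11 and 0.12, Cebpd at -0.061 and -0.062 and Scd1 at -0.025 and -0.026. Members called lower numbered 2 without a filter, through Cebpb (-0.36), and 1 to 2 with cultures left out. In those fits Cebpb ranged from -0.58 to -0.10, Cebpd from -0.083 to 0.082 and Cebpz from -0.11 to 0.013. For 5-ASA against Ad-Control, members called higher numbered 1 in both limma fits, with Cebpb at 0.40 and 0.40 and Cebpg at 0.13 and 0.14, and Cebpb missed the test in DESeq2 with all cultures (0.46). Cebpd passed without a filter (0.19), with at least 10 counts in every culture (0.20) and with only the groups compared (0.19), and ranged from 0.078 to 0.26 with cultures left out, as Cebpz did from -0.10 to 0.017. The cause was not tested, except that the filter and the cultures left out change the genes and samples fitted. Without a filter, Cebpb with 5-ASA against Ad-OSCAR kept its log2 fold change while its SE fell from 0.146 to 0.052. For Cebpd in Ad-OSCAR against Ad-Control the SE fell from 0.084 to 0.050. These calls came with a smaller SE and not with a larger change.

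The counts showed no pairing by replicate number. Deviations from the group means correlated at -0.021 on average between cultures of the same number (-0.072 to 0.040), and at 0.010 between other numbers. Of the 9 cultures, 2 correlated best with their own number. Deviations within a group cancel out, which ties these averages to each other, so they cannot tell whether cultures shared a preparation. With the number as a block, Cebpa had 1.23 and -0.40, Cebpb 0.79 and -0.33 and Cebpg 0.047 and 0.33 in the OSCAR and 5-ASA comparisons, the members called stayed at 2 and 2, and the genes called over the whole table with 5-ASA were 1483 higher and 1017 lower. Depth limits Cebpe, at 0 counts, and Cebpa, with 104 to 399 counts per culture.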
